A study of Hordeum vulgare with 12 samples.

Results

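The stem base (crown) of the barley seedling is the short segment from which the crown roots emerge. Its RNA was sequenced to ask which genes changed with age differently in plants expressing AtCKX1 than in the wild type. All 12 libraries of the series were used. Wild-type cv. Golden Promise (GP) and an AtCKX1-overexpressing line were each sampled at 1 and 10 days after germination (1DAG and 10DAG), with 3 libraries per genotype and age. The series design states that AtCKX1 plants accumulate less cytokinin. The paper's methods describe pools of seedlings per library for GP and do not describe the AtCKX1 libraries. The promoter driving AtCKX1 and the number of lines are not given in the sources used here. The grains of both genotypes were sown on filter paper. By the paper's methods the older seedlings grew in hydroponics, and a longer piece of stem base was cut from them. Age, culture and length of the piece cannot be told apart. The measure described here is the difference of age effects, which is the log2 change from 1DAG to 10DAG in AtCKX1 minus the same change in GP. A positive difference was scored as a higher change with age in AtCKX1, and a negative one as a lower change. Of 20212 genes tested, 98 were called, meaning that the adjusted p did not exceed 0.05 and the difference was at least 1 in size on the log2 scale.

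Cytokinins are adenine-derived hormones that promote shoot growth and restrain the initiation of lateral and crown roots. Cytokinin oxidase/dehydrogenases degrade them irreversibly, and AtCKX1 is one such enzyme of Arabidopsis. Response to the hormone runs through histidine kinase receptors and a phosphorelay that ends at response regulators, some of which are themselves induced by cytokinin. The crown is a place where shoot growth and root initiation meet, and cytokinin and auxin are known to act there in opposition.

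The libraries held 36100002 to 51997655 reads assigned to genes (median 42479783). The AtCKX1 transgene, listed as AT2G41510, had 0 counts in all 6 GP libraries, where 3 counts would correspond to 0.0565 to 0.0819 CPM, the counts scaled to a common library total. It had 16, 11 and 18 counts in the AtCKX1 libraries at 1DAG and 42, 7 and 12 at 10DAG, so that the labels of all 12 libraries matched its presence at a low level. GP 1DAG replicate 1 stood apart on the second principal component, which carried 16.0% of the variance, and the main counts are also given without it. The paper describes the replicates of GP as independent biological ones and does not describe those of AtCKX1. The labels do not say whether the 3 libraries of a group come from separate plantings, and the p-values measure only the spread between these libraries. None of the gene identifiers matched the barley gene table used here, so positions and sequences are not given. Functions could be read in the sources used here for 1334 of the genes tested. Nearly all of these had been chosen because they rose with age in GP on these same libraries. Most genes below are therefore named by identifier alone, and are not shown to lack a known function.

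The change with age was higher in AtCKX1 for 82 genes, or 0.406% of those tested, and lower for 16 genes, or 0.0792%. Both directions together made 0.485%. In RNA from a whole segment, fewer cells of a type and less RNA per cell cannot be told apart. In the same fit, 5867 genes (29.0%) passed the same limits for the change with age in GP and 5664 (28.0%) in AtCKX1. Thus the genes called for a difference of age effects were few beside those called for age in either genotype. The difference has a larger standard error than an age change, 0.53 beside 0.40 in GP and 0.35 in AtCKX1 for MLOC_72290. Fewer calls therefore follow in part from the test. Without a limit on fold, 88 genes were higher and 19 lower, and 1450 genes had an unadjusted p under 0.05. The difference ranged from 1.01 to 5.36 among the higher genes (median 1.82) and from 1.09 to 4.48 in size among the lower genes (median -2.80), while the median over all genes tested was -0.03. The highest group mean of the 98 genes ran from 1.82 to 604 CPM, with a median of 50.7 CPM.

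**Figure D1:**
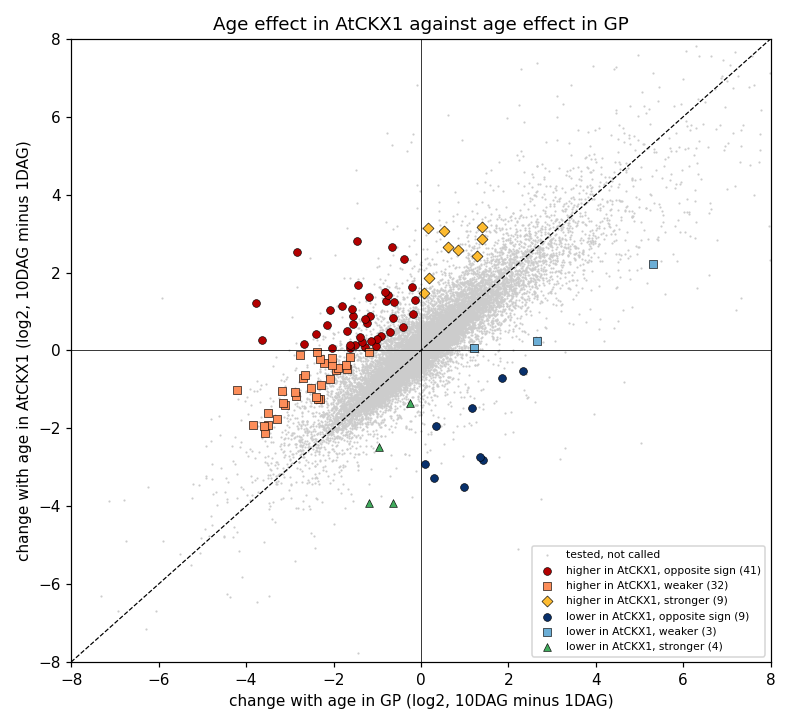
Change with age in AtCKX1 (vertical axis, log2, 10DAG minus 1DAG) against change with age in GP (horizontal axis, same unit) for the 20212 genes tested, fitted values from 3 libraries per group. Grey points were not called, the dashed line marks equal changes, and most of the 82 higher genes lie to the left of 0, where GP fell.

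The number of calls depended on single libraries. The 82 higher calls became 32 without GP 10DAG replicate 1, 45 without GP 10DAG replicate 2, 37 without GP 10DAG replicate 3, 50 without AtCKX1 1DAG replicate 1, 45 without AtCKX1 1DAG replicate 2, 27 without AtCKX1 1DAG replicate 3 and 35 without AtCKX1 10DAG replicate 3. The 16 lower calls became 39 without GP 1DAG replicate 3, 8 without GP 10DAG replicate 1 and 7 without AtCKX1 1DAG replicate 3. Leaving out GP 1DAG replicate 1 gave 109 higher and 14 lower genes. Leaving it out together with GP 10DAG replicate 2 gave 92 higher and 14 lower genes, and 81 of the 98 calls were shared. All 98 genes kept their sign in each fit that left out a library, which is favoured by their choice on mostly the same libraries. Of the 98, 33 (26 higher and 7 lower) were called in all 12 such fits. These 33 carry most of the description below.

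The 98 genes were sorted by whether the 2 estimated age changes had the same sign. In 50 genes the signs were opposite, in 35 the change had the same sign but was weaker in AtCKX1, and in 13 it was stronger in AtCKX1. Without GP 1DAG replicate 1 these counts were 58, 50 and 15. Over all genes tested, 13.6% had opposite signs, 44.1% a weaker and 42.3% a stronger change in AtCKX1. A gene with opposite signs has a larger difference for the same age changes, so that a high share of them among the calls follows in part from the test.

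The 82 higher genes were mostly genes that fell with age in GP. The change in GP was negative for 73 of them and passed the limits for 60, whereas 51.0% of all genes tested fell in GP. A positive difference by itself favours genes that fall in GP, and the share is given as a description. In 41 genes a negative estimate in GP stood against a positive one in AtCKX1. Both of these changes passed the limits in 8 of the 41, that in GP alone in 20, that in AtCKX1 alone in 8 and neither in 5. In 32 genes the fall was weaker in AtCKX1, and 9 genes rose more strongly in AtCKX1. Without GP 1DAG replicate 1, the estimate in GP was negative for 98 of 109 higher genes and passed for 82, and the 109 were 9 reversals, 24 that passed in both genotypes in the same direction, 52 in GP alone, 16 in AtCKX1 alone and 8 in neither.

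A full reversal, with both age changes past the limits and opposite, was seen in 8 higher genes. MLOC_72290, MLOC_29257, MLOC_81109, MLOC_56051, MLOC_41838 and MLOC_58758 are 6 of them, and MLOC_49099 and MLOC_42878, added after their values were seen, are the others. Their median change was -1.69 in GP and 1.28 in AtCKX1. The 10DAG libraries of the genotypes did not overlap for any of the 8, and did not overlap for 23.7% of all genes tested.

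MLOC_72290 had 8.84, 13.8 and 19.6 CPM in GP at 1DAG and 1.30, 0.956 and 0.807 CPM at 10DAG. In AtCKX1 it had 10.8, 8.60 and 6.39 CPM at 1DAG and 12.9, 29.5 and 17.3 CPM at 10DAG. The 3 GP libraries at 10DAG were lower than all others, and the 1DAG libraries of the genotypes overlapped. The age change was -3.77 in GP and 1.21 in AtCKX1, a difference of 4.98 (SE 0.53, adjusted p = 0.00245, edgeR), which was called in all 12 fits that left out a library (highest adjusted p = 0.0161).

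MLOC_29257 had 1.73, 1.92 and 2.79 CPM in GP at 1DAG and 0.961, 0.655 and 0.706 CPM at 10DAG. In AtCKX1 the values were 1.61, 1.23 and 1.12 CPM at 1DAG and 5.05, 14.5 and 8.36 CPM at 10DAG. Here the AtCKX1 libraries at 10DAG stood above the other 9. The difference of age effects was 4.28 (SE 0.54, adjusted p = 0.00518, edgeR) and was called in 12 of 12 left-out fits.

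MLOC_81109 had 96.7, 88.8 and 114 CPM in GP at 1DAG against 30.2, 21.7 and 19.1 CPM at 10DAG. AtCKX1 plants had 65.0, 53.3 and 37.8 CPM at 1DAG and 89.5, 129 and 103 CPM at 10DAG. At each age the libraries of the genotypes were separate, with GP higher at 1DAG and lower at 10DAG. The change was -2.07 in GP and 1.04 in AtCKX1, a difference of 3.11 (SE 0.32, adjusted p = 0.00241, edgeR), called in 12 of 12 left-out fits.

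MLOC_56051 fell in GP from 12.3, 18.6 and 18.4 CPM to 6.08, 4.45 and 3.61 CPM. In AtCKX1 it rose from 15.7, 10.8 and 8.38 CPM to 19.8, 30.8 and 26.6 CPM. Its difference was 2.94 (SE 0.39, adjusted p = 0.00747, edgeR). MLOC_56052, which has the next identifier, did not pass for age in GP, with 2.66, 4.43 and 4.92 CPM at 1DAG and 3.35, 2.08 and 2.09 CPM at 10DAG. In AtCKX1 it went from 2.55, 1.90 and 1.41 CPM to 6.62, 18.7 and 11.9 CPM, a difference of 3.33 (SE 0.56, adjusted p = 0.0259, edgeR). The call for MLOC_56051 held in all 12 left-out fits, and that for MLOC_56052 in 6 (highest adjusted p = 0.104).

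The largest difference among the 98 genes, 5.36 (SE 0.85, adjusted p = 0.0197, edgeR), belonged to MLOC_41838, a gene with few reads. It had 0.305, 1.24 and 1.52 CPM in GP at 1DAG and 0.132, 0.164 and 0.126 CPM at 10DAG. The line with AtCKX1 had 0.590, 0.690 and 0.510 CPM at 1DAG and 1.84, 5.83 and 2.68 CPM at 10DAG. MLOC_58758 was also low, with 1.40, 0.705 and 0.837 CPM at 1DAG and 0.396, 0.410 and 0.277 CPM at 10DAG in GP. Its AtCKX1 libraries had 0.803, 0.496 and 0.413 CPM at 1DAG and 1.57, 2.59 and 1.29 CPM at 10DAG, a difference of 3.11 (SE 0.59, adjusted p = 0.0437, edgeR). These calls held in 6 and in 1 of the 12 left-out fits.

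In the largest subset, 37 higher genes, the fall with age passed the limits in GP alone. The median change was -1.71 in GP and 0.06 in AtCKX1, where single genes ranged from -0.97 to 0.88. All 3 GP libraries at 10DAG were below all 3 at 1DAG for each of the 37, genes that were sorted by their fall in GP, beside 28.7% of all genes tested. At 10DAG the AtCKX1 libraries were separate from those of GP for each of them. Over all genes tested, the 10DAG libraries of the genotypes did not overlap for 23.7%, and the 1DAG libraries for 21.4%.

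MLOC_44067 showed the largest difference of this subset. In GP it had 13.5, 13.2 and 16.4 CPM at 1DAG and 1.56, 0.929 and 0.933 CPM at 10DAG. In AtCKX1 it had 8.93, 9.20 and 4.95 CPM at 1DAG and 6.06, 13.6 and 7.84 CPM at 10DAG. The ages did not overlap in GP and overlapped in AtCKX1. The difference was 3.89 (SE 0.49, adjusted p = 0.00518, edgeR), called in 12 of 12 left-out fits.

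MLOC_17002, chosen after its values were seen as a gene with many reads, had 546, 371 and 479 CPM in GP at 1DAG and 186, 165 and 123 CPM at 10DAG. The AtCKX1 values were 298, 247 and 205 CPM at 1DAG and 339, 458 and 401 CPM at 10DAG. The AtCKX1 libraries were below those of GP at 1DAG and above them at 10DAG, without overlap at either age. Its difference was 2.23 (SE 0.28, adjusted p = 0.00555, edgeR).

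MLOC_82117 and MLOC_15214, also chosen afterwards, show the same fall at other read depths. MLOC_82117 had 385, 390 and 513 CPM in GP at 1DAG and 71.7, 63.3 and 62.0 CPM at 10DAG, while AtCKX1 had 323, 426 and 259 CPM and then 174, 249 and 191 CPM. The difference was 1.99 (SE 0.28, adjusted p = 0.00858, edgeR). MLOC_15214 had 54.6, 60.8 and 64.0 CPM in GP at 1DAG and 16.6, 15.3 and 14.9 CPM at 10DAG, while AtCKX1 had 56.3, 58.9 and 48.9 CPM and then 39.0, 41.1 and 35.8 CPM. The difference was 1.44 (SE 0.15, adjusted p = 0.00241, edgeR). For both, the 1DAG libraries of the genotypes overlapped and those at 10DAG were apart.

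In 18 higher genes both age changes passed the limits in the same direction. They fell in both genotypes in 15 of the 18, with less of a fall in AtCKX1. The consecutive identifiers MLOC_70816 and MLOC_70817 illustrate the 2 subsets. MLOC_70817 fell in GP from 42.2, 29.8 and 53.3 CPM to 2.03, 1.80 and 2.93 CPM, and in AtCKX1 from 33.7, 27.3 and 14.4 CPM to 10.5, 14.1 and 12.9 CPM. MLOC_70816 fell in GP from 122, 132 and 174 CPM to 30.0, 35.0 and 40.0 CPM, and in AtCKX1 it had 111, 106 and 86.6 CPM and then 84.2, 113 and 117 CPM. The differences were 3.20 (SE 0.44, adjusted p = 0.00858, edgeR) for MLOC_70817 and 2.08 (SE 0.25, adjusted p = 0.00518, edgeR) for MLOC_70816. Alignments that were not unique had been set aside in the counting, and made up 7.02% to 10.3% of the counts of a library. Whether these neighbours are alike in sequence was not tested. MLOC_70480, chosen after its values were seen, fell from 76.2, 59.9 and 85.7 CPM to 6.07, 5.93 and 6.31 CPM in GP and from 66.2, 70.3 and 53.0 CPM to 17.6, 17.8 and 14.2 CPM in AtCKX1. Its difference was 1.67 (SE 0.22, adjusted p = 0.0067, edgeR).

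A rise with age that passed in AtCKX1 alone was seen in 14 higher genes, with a median change of 1.74 in AtCKX1 and -0.16 in GP. MLOC_36648 had 7.45, 4.55 and 4.66 CPM in GP at 1DAG and 6.01, 7.07 and 5.52 CPM at 10DAG. AtCKX1 plants had 3.26, 4.59 and 4.78 CPM at 1DAG and 28.7, 51.2 and 32.5 CPM at 10DAG. Only the AtCKX1 libraries at 10DAG stood apart from the rest. The difference was 3.00 (SE 0.38, adjusted p = 0.00518, edgeR), called in 12 of 12 left-out fits.

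Other genes of this kind were chosen after their values were seen. MLOC_19593 had 15.6, 16.6 and 17.9 CPM in GP at 1DAG, 19.5, 18.7 and 18.7 CPM in GP at 10DAG and 19.4, 19.7 and 19.3 CPM in AtCKX1 at 1DAG, against 65.6, 84.7 and 61.4 CPM in AtCKX1 at 10DAG. Its difference was 1.67 (SE 0.18, adjusted p = 0.00241, edgeR). MLOC_13672 had 11.3, 12 and 13.2 CPM, 8.67, 9.29 and 9.76 CPM and 12.6, 16.3 and 10.2 CPM in the same 3 groups, against 52.2, 95.6 and 51.5 CPM in AtCKX1 at 10DAG, a difference of 2.74 (SE 0.34, adjusted p = 0.00518, edgeR). MLOC_5597 reached 49.0, 57.7 and 50.6 CPM in AtCKX1 at 10DAG, after 20.9, 26.1 and 19.2 CPM at 1DAG, while GP had 20.2, 22.2 and 25.2 CPM and then 14.4, 14.2 and 15.5 CPM. Its difference was 1.86 (SE 0.19, adjusted p = 0.00241, edgeR). MLOC_40006 rose in AtCKX1 from 24.1, 26.5 and 19.7 CPM to 125, 170 and 124 CPM, and in GP had 13.1, 20.9 and 19.7 CPM and then 34.1, 30.2 and 31.6 CPM. Its difference was 1.74 (SE 0.27, adjusted p = 0.0181, edgeR). The first 3 were called in all 12 left-out fits and MLOC_40006 in 8 (highest adjusted p = 0.0702).

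In 5 further higher genes neither age change passed the limits. MLOC_54759 was one, with 78.9, 85.4 and 83.8 CPM at 1DAG and 49.3, 52.9 and 49.1 CPM at 10DAG in GP. In AtCKX1 it had 86.6, 90.8 and 96.3 CPM and then 111, 150 and 116 CPM. Its difference of 1.18 (SE 0.16, adjusted p = 0.00844, edgeR) was called in 12 of 12 left-out fits, and the gene was chosen after its values were seen.

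**Figure D2:**
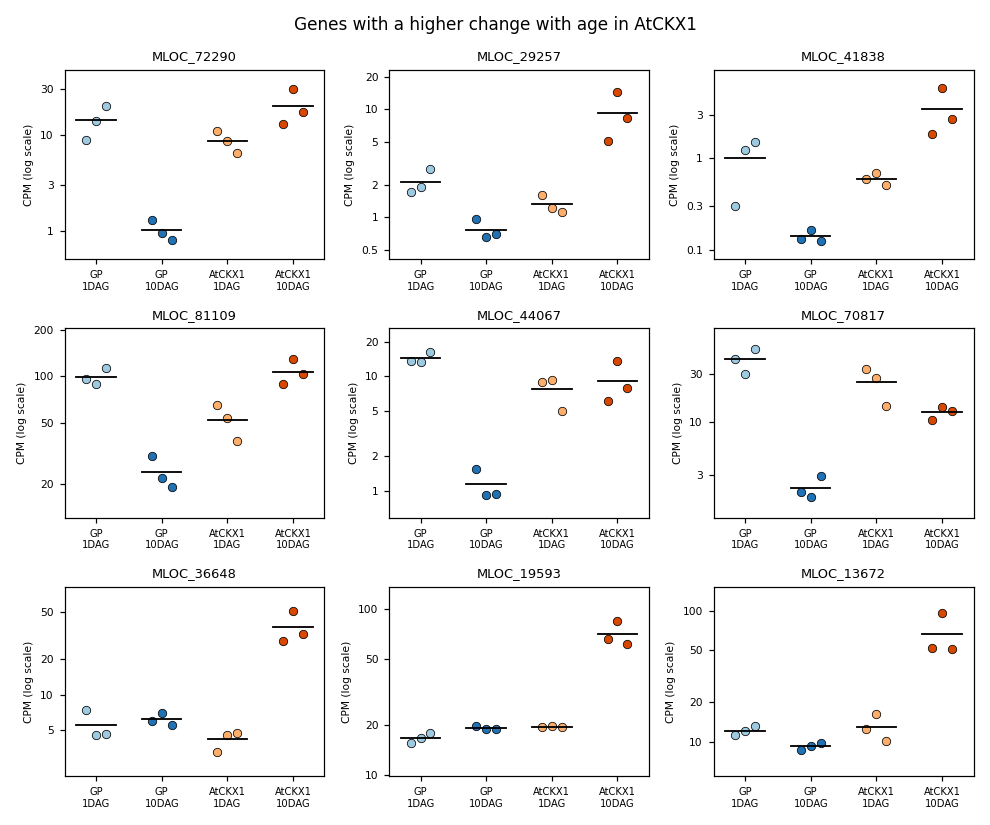
CPM on a log axis in each of the 12 libraries (points) with the group mean (bar) for 9 genes with a higher change with age in AtCKX1. In the upper 2 panel rows GP fell between the ages and AtCKX1 was level, rose or fell less. In the lowest panel row AtCKX1 at 10DAG stood far above the other groups, as in MLOC_19593 with 61.4 to 84.7 CPM there.

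The 82 higher genes also shifted together between libraries of 1 group. AtCKX1 1DAG replicate 3 was the lowest library of its group for 69 of the 82 genes, and AtCKX1 10DAG replicate 2 the highest of its group for 63. GP 10DAG replicate 3 was the lowest of its group for 50. The same counts were not made over all genes tested, and the 82 genes were chosen on these libraries. Whether the shift goes beyond that of other genes is not known, and the genes need not be independent of each other within a library. Without AtCKX1 1DAG replicate 3, 27 higher genes were called, and without AtCKX1 10DAG replicate 2, 56 were. What the libraries share was not tested.

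The size of the genotype difference was larger at 10DAG than at 1DAG in 71 of the 82 higher genes, beside 39.9% of all genes tested. The libraries of the genotypes did not overlap at 10DAG in 81 of the 82 and at 1DAG in 48, beside 23.7% and 21.4% of all genes tested. The 82 were called on these same libraries, and the counts are a description. The genotype difference passed the limits at 10DAG alone in 56, at 1DAG alone in 4, at neither age in 22 and at both in none. In the same fit, 250 genes (1.24%) passed between the genotypes at 10DAG and 102 (0.505%) at 1DAG. The GP mean at 1DAG was above that of AtCKX1 in 73 of the 82, beside 46.4% of all genes tested. Without GP 1DAG replicate 1, the difference was larger at 10DAG in 96 of 109 genes and passed at 10DAG alone in 75, at 1DAG alone in 4 and at neither in 30. The genotype differences share the fit and the libraries with the difference of age effects and are a description of it.

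Among the 4 genes that differed at 1DAG alone, MLOC_7269 stood out and was chosen after its values were seen. It had 2.48, 3.81 and 2.65 CPM in AtCKX1 at 1DAG, against 18.1, 22.8 and 22.6 CPM in GP at that age. At 10DAG it had 25.8, 26.6 and 22.4 CPM in AtCKX1 and 31.9, 27.1 and 32.3 CPM in GP. The AtCKX1 libraries at 1DAG were thus the lowest, and the difference in age effect of 2.54 (SE 0.24, adjusted p = 0.00241, edgeR) came with a genotype difference of -2.82 at 1DAG. It was called in 12 of 12 left-out fits.

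**Figure D3:**
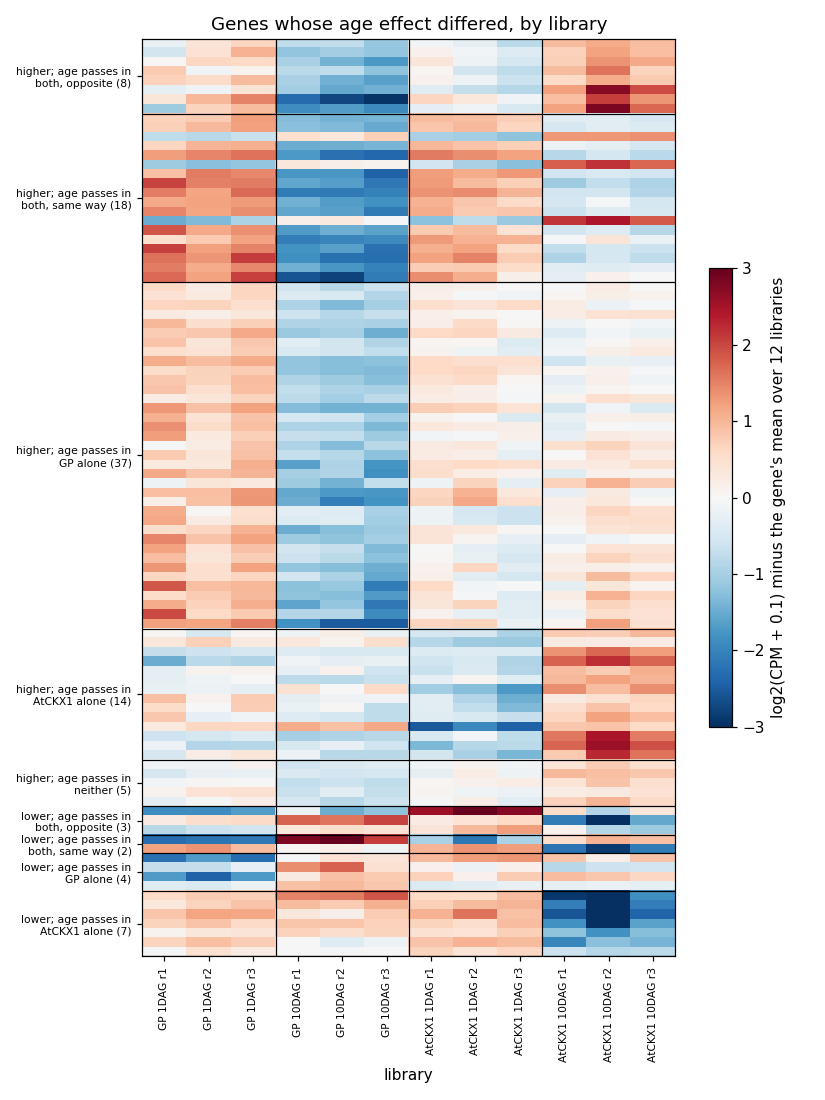
Level of the 98 called genes (rows of the map) in the 12 libraries (columns), as log2(CPM + 0.1) minus the mean of the gene, with colours cut at 3 in size. Genes are grouped by direction of the difference and by the genotype in which age passed the limits, with the 8 reversals at the top. At the bottom are the 7 genes whose fall passed the limits in AtCKX1 alone, which are lowest in AtCKX1 at 10DAG.

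The 16 lower genes fell into separate patterns. A fall with age passed in AtCKX1 alone in 7 genes, with a median change of -2.93 in AtCKX1 and 0.08 in GP. Their 10DAG libraries were separate between the genotypes in all 7, and the 1DAG libraries in 1, beside 23.7% and 21.4% of all genes tested. No function could be read for any of them in the sources used here. Those named here beyond the rule for naming genes, MLOC_52387, MLOC_65982 and MLOC_78933, were chosen after their values were seen.

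MLOC_37446 had 15.1, 17.1 and 16.6 CPM in GP at 1DAG, 28.8, 29.9 and 37.7 CPM in GP at 10DAG and 15.4, 14.8 and 19.2 CPM in AtCKX1 at 1DAG. In AtCKX1 at 10DAG it had 1.28, 0.419 and 2.74 CPM. The genotypes were alike at 1DAG, with a genotype difference of 0.02, and far apart at 10DAG, with -4.47. The difference of age effects was -4.48 (SE 0.60, adjusted p = 0.00758, edgeR), called in 12 of 12 left-out fits.

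MLOC_61919 had 46.4, 59.1 and 67.0 CPM in GP at 1DAG and 71.6, 62.8 and 77.0 CPM at 10DAG. In AtCKX1 it went from 60.9, 72.1 and 75.7 CPM to 8.80, 3.93 and 8.78 CPM. The difference was -3.58 (SE 0.37, adjusted p = 0.00241, edgeR). MLOC_52247 fell in AtCKX1 from 27.3, 41.5 and 24.7 CPM to 2.18, 1.54 and 2.45 CPM, and in GP had 23.6, 30.5 and 29.7 CPM and then 16.8, 15 and 22.5 CPM. The difference was -3.30 (SE 0.34, adjusted p = 0.00241, edgeR). Both were called in 12 of 12 left-out fits.

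MLOC_70331 was steady in 3 groups, with 6.01, 6.88 and 5.63 CPM, 6.82, 6.72 and 6.10 CPM in GP at the 2 ages and 6.07, 5.47 and 7.21 CPM in AtCKX1 at 1DAG. It had 0.987, 0.339 and 1.16 CPM in AtCKX1 at 10DAG. The difference was -3.01 (SE 0.46, adjusted p = 0.0181, edgeR), and the call was lost without GP 10DAG replicate 1 (adjusted p = 0.0582) and without AtCKX1 1DAG replicate 3 (adjusted p = 0.0717).

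MLOC_52387 had 90.0, 105 and 109 CPM and then 135, 121 and 133 CPM in GP. Its AtCKX1 libraries had 114, 111 and 136 CPM and then 36.1, 23.7 and 34.5 CPM, a difference of -2.29 (SE 0.22, adjusted p = 0.00241, edgeR) that was called in 12 of 12 left-out fits. MLOC_65982 fell in both genotypes, from 22.8, 26.9 and 24.0 CPM to 14.1, 11 and 12.7 CPM in GP and from 26.1, 29.5 and 27.7 CPM to 3.61, 5.99 and 5.39 CPM in AtCKX1. MLOC_78933 had 31.1, 43.7 and 37.2 CPM and then 31.3, 30.3 and 32.1 CPM in GP, and 50.7, 42.0 and 48.8 CPM and then 20.2, 17.5 and 18.0 CPM in AtCKX1. Their differences were -1.51 (SE 0.25, adjusted p = 0.0226, edgeR) and -1.09 (SE 0.19, adjusted p = 0.0274, edgeR), and their calls held in 6 and 3 of the 12 left-out fits.

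The 10DAG loss in AtCKX1 was also seen in MLOC_36743 and MLOC_70279, whose age change passed in both genotypes. MLOC_36743, chosen after its values were seen, had 5.30, 5.91 and 4.39 CPM and then 2.34, 2.49 and 2.04 CPM in GP, against 4.68, 5.90 and 5.49 CPM and then 0.404, 0.220 and 0.447 CPM in AtCKX1. The fall was stronger in AtCKX1, with a difference of -2.73 (SE 0.36, adjusted p = 0.00708, edgeR). MLOC_70279 rose in GP from 22.5, 27.5 and 28.2 CPM to 65.2, 57.7 and 77.9 CPM and fell in AtCKX1 from 22.4, 25.3 and 29.0 CPM to 4.35, 0.838 and 6.5 CPM. The difference was -4.09 (SE 0.67, adjusted p = 0.0225, edgeR), and the call held in 7 of 12 left-out fits (highest adjusted p = 0.0836, without AtCKX1 1DAG replicate 3).

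AtCKX1 10DAG replicate 2 was the lowest of the 12 libraries for 8 of the 16 lower genes, a count not made over all genes tested. The count without that library was 16, of which 13 were shared with the 16.

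**Figure D4:**
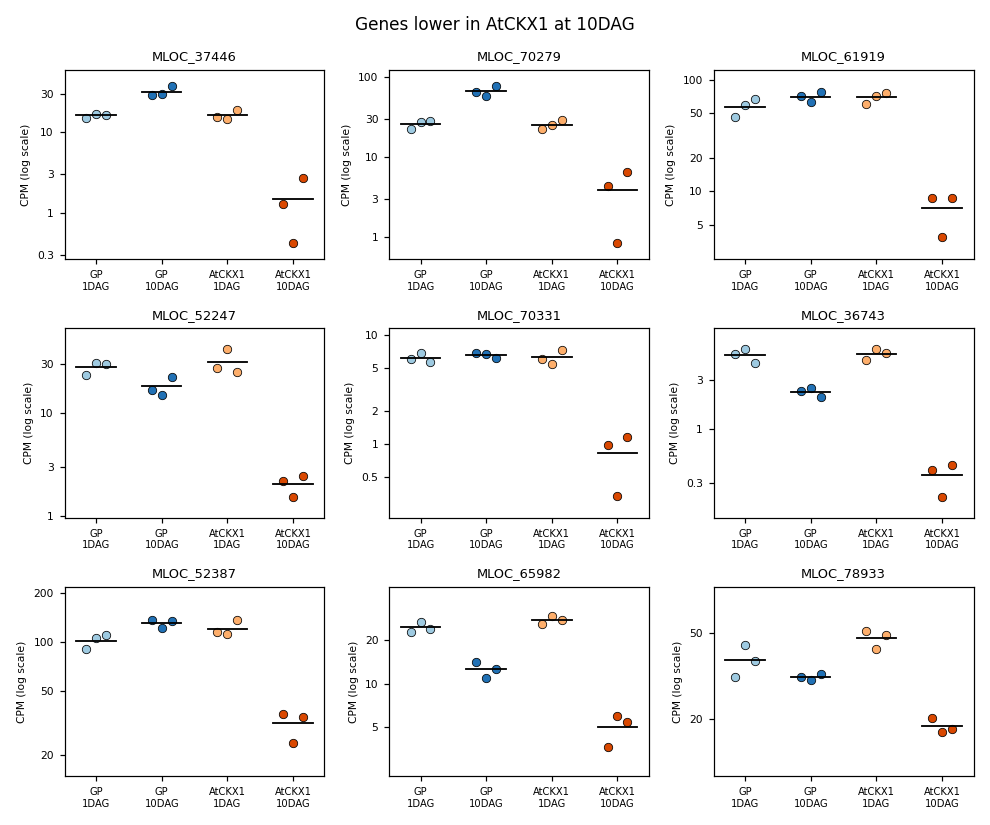
CPM on a log axis in each of the 12 libraries (points) with the group mean (bar) for the 9 genes with a lower change with age in AtCKX1 that were lowest in AtCKX1 at 10DAG. In each panel the 3 AtCKX1 libraries at 10DAG lie below the other 9, and replicate 2, the middle point, is the lowest of the 3 in MLOC_37446, MLOC_70279, MLOC_61919, MLOC_52247, MLOC_70331, MLOC_36743, MLOC_52387 and MLOC_78933.

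In another pattern GP was low at 1DAG and caught up. MLOC_14101 had 5.65, 8.34 and 5.45 CPM in GP at 1DAG and 26.4, 36.8 and 35.6 CPM at 10DAG. The AtCKX1 values were 53.1, 65.1 and 68.2 CPM at 1DAG and 49.0, 31.0 and 49.4 CPM at 10DAG. The genotypes were separate at 1DAG and overlapped at 10DAG. The difference was -2.87 (SE 0.32, adjusted p = 0.00272, edgeR), called in 12 of 12 left-out fits. MLOC_13425, chosen after its values were seen, had 2.09, 1.22 and 2.05 CPM in GP at 1DAG and 8.52, 13.0 and 12.2 CPM at 10DAG, against 11.5, 7.69 and 12 CPM and then 13.4, 12.5 and 10.9 CPM in AtCKX1. Its difference was -2.41 (SE 0.35, adjusted p = 0.0139, edgeR), and the call was lost without AtCKX1 1DAG replicate 3 (adjusted p = 0.0592) and without AtCKX1 10DAG replicate 3 (adjusted p = 0.0509).

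MLOC_69385 was nearly absent in GP, with 0.122, 0.122 and 0.152 CPM at 1DAG and 0.603, 0.191 and 0.252 CPM at 10DAG. In AtCKX1 it had 4.72, 6.34 and 5.24 CPM at 1DAG and 1.08, 0.339 and 0.920 CPM at 10DAG. The genotype difference was 5.34 at 1DAG. The difference of age effects was -4.23 (SE 0.71, adjusted p = 0.0259, edgeR), and the call held in 6 of 12 left-out fits. MLOC_73272, chosen after its values were seen, showed a rise that was missing in AtCKX1. It had 23.9, 22.8 and 27.1 CPM in GP at 1DAG and 56.9, 60.2 and 54.2 CPM at 10DAG, against 23.0, 24.7 and 26.5 CPM and then 25.7, 26.8 and 25.2 CPM in AtCKX1. The difference was -1.15 (SE 0.14, adjusted p = 0.00518, edgeR), called in 12 of 12 left-out fits.

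A function could be read in the sources used here for 4 of the 98 genes. Of the 1334 described genes tested, 1 was higher and 3 were lower, beside 82 and 16 of the 20212. These described genes had been chosen for a rise with age in GP, which favours a weaker rise in AtCKX1. Genes that fell in GP are mostly not among them, and 73 of the 82 higher genes fell there. The difference of the described genes was negative in 65.6%, with a median of -0.18, beside 53.6% and -0.03 over all genes tested.

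The higher gene with a function was MLOC_14118, described as Circadian clock associated 1 (CCA1). Its class is that of the REVEILLE transcription factors of the MYB superfamily. In Arabidopsis CCA1 is a MYB-type transcription factor at the core of the clock, and its transcript peaks around dawn. MLOC_14118 had 36.5, 40.4 and 53.2 CPM in GP at 1DAG and 115, 125 and 100 CPM at 10DAG. The line with AtCKX1 had 43.7, 60.3 and 47.4 CPM at 1DAG and 451, 549 and 364 CPM at 10DAG. The genotypes overlapped at 1DAG, and at 10DAG the AtCKX1 libraries were all above those of GP. The gene rose in both genotypes, by 1.39 on the log2 scale in GP and by 3.17 in AtCKX1, a difference of 1.78 (SE 0.26, adjusted p = 0.0146, edgeR). The call was lost without GP 10DAG replicate 1 (adjusted p = 0.0539) and without AtCKX1 1DAG replicate 3 (adjusted p = 0.0699).

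The other members of the clock list had estimates of the opposite sign and were not called, although DESeq2 called the first. MLOC_62596, a pseudo-response regulator, belongs to a family that represses CCA1 in Arabidopsis. It had 75.9, 94.9 and 113 CPM in GP at 1DAG, 202, 175 and 231 CPM in GP at 10DAG, 112, 122 and 113 CPM in AtCKX1 at 1DAG and 138, 85.5 and 121 CPM in AtCKX1 at 10DAG, a difference of -1.11 (SE 0.26, adjusted p = 0.125, edgeR). MLOC_53725, a kelch-repeat F-box protein of the blue-light receptor family that includes ZEITLUPE of Arabidopsis, had 39.8, 50.8 and 60.2 CPM, 105, 94.0 and 127 CPM, 55.8, 54.2 and 63.0 CPM and 61.0, 25.9 and 60.0 CPM in the same order, a difference of -1.35 (SE 0.39, adjusted p = 0.279, edgeR). For both, the 10DAG libraries of AtCKX1 were below those of GP. Clock transcripts vary over the day, and the hour of harvest is not given in the sources used here, so that hour and genotype cannot be told apart at 10DAG.

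The lower genes with a function were 3. MLOC_73481, whose description is that of a receptor-like kinase with leucine-rich repeats and which is classed with inhibitors of pathogen polygalacturonases, rose in GP from 0.427, 0.462 and 0.482 CPM to 17.9, 26.2 and 10.8 CPM. In AtCKX1 it rose less, from 1.2, 0.474 and 1.24 CPM to 3.61, 5.19 and 4.65 CPM. The difference was -3.11 (SE 0.55, adjusted p = 0.0311, edgeR), and the call held in 2 of 12 left-out fits.

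MLOC_61269, a nodulin MtN21/EamA-like transporter of the UmamiT family, whose members move amino acids across membranes in Arabidopsis, rose in GP from 5.14, 5.11 and 7.17 CPM to 22.5, 29.1 and 11.7 CPM. Its AtCKX1 libraries had 9.23, 7.5 and 9.42 CPM and then 4.73, 5.51 and 5.65 CPM. The ages were separate in both genotypes, in opposite directions. The difference was -2.58 (SE 0.40, adjusted p = 0.0181, edgeR), and the call held in 8 of 12 left-out fits (highest adjusted p = 0.0702).

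MLOC_74149 is a cellulose synthase-like protein. Enzymes of this family build the backbones of cell wall polysaccharides such as mixed-linkage glucan. It had 0.873, 1.02 and 1.09 CPM in GP at 1DAG and 2.09, 2.40 and 2.22 CPM at 10DAG, against 2.17, 3.30 and 4.03 CPM and then 1.77, 0.858 and 0.736 CPM in AtCKX1. The difference was -2.66 (SE 0.50, adjusted p = 0.0433, edgeR), and the call held in 1 of 12 left-out fits.

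Sorted by function, the described genes made 28 overlapping lists, of which 24 had no called member. Nearly all listed genes had been chosen for a rise in GP, whereas 73 of the 82 higher genes fell there. The lists could therefore hold few of the calls, and a list without a call does not speak for its function as a whole. Carrier-mediated transport had 1 lower gene (MLOC_61269) among 163 tested, the pathogen list 1 lower gene (MLOC_73481) among 14, and transcriptional regulation 1 higher gene (MLOC_14118) among 197, which is also the 1 called gene of 3 in the clock list. Lists without a call included auxin (8 tested), ethylene (6), jasmonic acid (10), gibberellin (9), abscisic acid (6), nitrogen assimilation (6), cell wall organisation (37), phosphorylation (143), glutaredoxin (10) and heat shock and chaperones (7). Their median differences were -0.20 for auxin, -0.28 for ethylene, -0.24 for jasmonic acid, -0.72 for gibberellin, -0.11 for abscisic acid, -0.74 for nitrogen assimilation, -0.25 for cell wall organisation, -0.18 for phosphorylation, -0.11 for glutaredoxin and -0.77 for heat shock and chaperones, beside -0.03 for all genes. The choice of described genes favours negative values in all of these lists.

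The photosynthesis list, 12 genes with no call, had a median difference of 0.05. Its summed level was 168.5 to 290 CPM in GP and 194 to 223 CPM in AtCKX1 at 1DAG, and 881 to 1055 CPM in GP and 1219 to 1308 CPM in AtCKX1 at 10DAG. The genotypes overlapped at 1DAG and not at 10DAG. The sum was largely MLOC_37052, the photosystem II 10 kDa polypeptide, with 586, 511 and 618 CPM in GP and 927, 960 and 829 CPM in AtCKX1 at 10DAG. The part of green tissue in the differences above was not tested.

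In the cytokinin list none of the 11 genes tested was called, and the median difference was -0.16. The barley cytokinin dehydrogenase MLOC_58639 (cytokinin oxidase/dehydrogenase 1) had 11, 14.6 and 23.3 CPM in GP at 1DAG and 81.0, 40.0 and 40.4 CPM at 10DAG. In AtCKX1 it had 2.81, 2.52 and 2.21 CPM at 1DAG and 40.8, 3.49 and 17.8 CPM at 10DAG. Its libraries were lower in AtCKX1 at 1DAG without overlap, as 21.4% of all genes tested were without overlap there. The genotype difference of -2.69 at 1DAG did not pass (adjusted p = 0.137, edgeR). At 10DAG the genotypes overlapped. The difference of age effects was 1.31 (SE 0.90, adjusted p = 0.839, edgeR).

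Hv_CKX4, a barley cytokinin dehydrogenase named as such in the counts, had 17.7, 18.9 and 23.0 CPM and then 62.9, 86.6 and 41 CPM in GP. AtCKX1 plants had 25.2, 23.8 and 28.7 CPM and then 47.7, 56.4 and 44.8 CPM, a difference of -0.74 (SE 0.32, adjusted p = 0.667, edgeR). It rose with age past the limits in GP, by 1.68 on the log2 scale, and the change in AtCKX1 was 0.94. MLOC_11021 (cytokinin dehydrogenase 2) rose in both, by 2.32 in GP and by 2.51 in AtCKX1, with a difference of 0.19 (SE 0.69, adjusted p = 0.958, edgeR). MLOC_16499 (cytokinin dehydrogenase 4b) and MLOC_81291, with a few counts per library, had differences of -0.51 (SE 0.64) and -0.62 (SE 1.37).

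The response regulators of the cytokinin list, a family of proteins at the end of the cytokinin phosphorelay, were not called. MLOC_23250, MLOC_61880 and MLOC_12999 are classed as B-type activators of the response, and MLOC_36886 as an A-type negative regulator. The difference was -0.48 for MLOC_23250 (SE 0.22, adjusted p = 0.697, edgeR), -0.06 for MLOC_61880 (SE 0.17), and 0.11 for MLOC_36886 (SE 0.35). MLOC_61880 had 9.42, 8.25 and 9.84 CPM and then 25.8, 25.6 and 31.5 CPM in GP, against 9.78, 11.1 and 9.98 CPM and then 29.1, 29.3 and 30.5 CPM in AtCKX1. The libraries of the genotypes overlapped at each age. MLOC_12999, a further response regulator, had 0 counts in all 6 libraries at 1DAG, and no difference is given. The lysine decarboxylase-family gene MLOC_6567, a family that includes cytokinin-activating enzymes, and the glycosyltransferase MLOC_79717 had differences of -0.67 (SE 0.73) and -0.16 (SE 0.68). MLOC_1013 had 1.13 (SE 2.22). Hv_CKX10, Hv_IPT2, Hv_IPT5 and Hv_IPT7, the last 3 named for isopentenyltransferases of cytokinin synthesis, had too few counts to be tested.

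**Figure D5:**
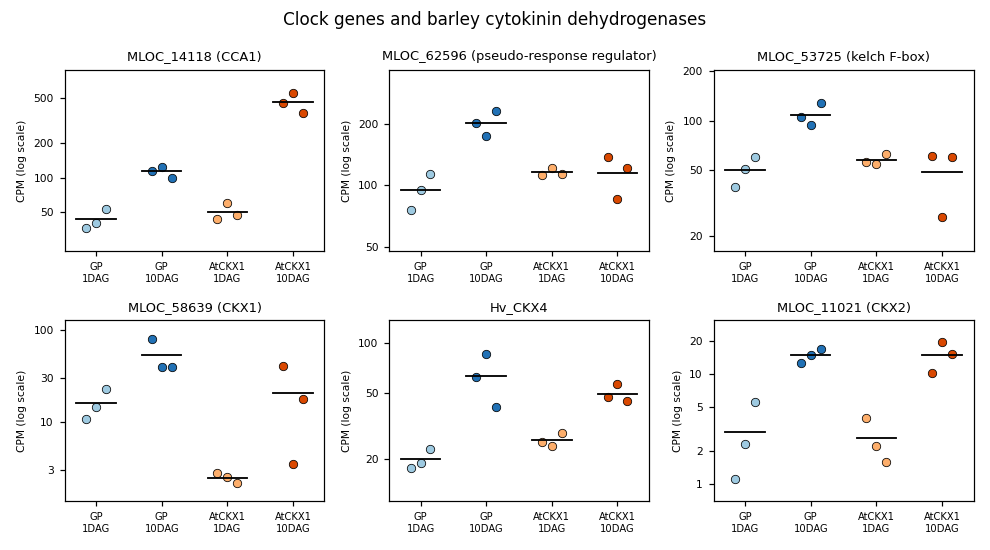
CPM on a log axis in each of the 12 libraries (points) with the group mean (bar) for the clock list (upper panels) and 3 barley cytokinin dehydrogenases (lower panels). MLOC_14118, described as CCA1, reaches 364 to 549 CPM in AtCKX1 at 10DAG, while no difference of age effects was called for the other 5 genes.

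None of the 10 genes for which primers had been designed in the study was called. Their differences were -0.22 for MLOC_10784, an LBD-type orthologue of the rice crown-root gene CRL1 (SE 0.28, adjusted p = 0.883, edgeR), -0.03 for the GRAS factor MLOC_6971 (SE 0.22) and -0.20 for the auxin efflux carrier MLOC_24846 (SE 0.33). They were 0.09 for the IAA-amino acid hydrolase MLOC_70768 (SE 0.25), -0.17 for auxin response factor 20, MLOC_73144 (SE 0.22), and -0.06 for the argonaute MLOC_4898 (SE 0.22). Cryptochrome 1b (MLOC_64083) had 0.03 (SE 0.18), cryptochrome 2 (MLOC_8289) -0.36 (SE 0.22) and the histone deacetylase MLOC_71091 -0.19 (SE 0.14). MLOC_10784 fell in both genotypes, from 13.8, 13.3 and 13.7 CPM to 6.25, 8.47 and 5.65 CPM in GP and from 10.8, 13.7 and 9.35 CPM to 4.04, 5.49 and 5.05 CPM in AtCKX1. The remaining gene is among the cytokinin genes above. A difference that was not called is not shown to be 0.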

How the data were processed

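Stem-base RNA of 12 barley libraries was analysed, 3 per genotype and age, grouped by their labels. The deposited values are raw counts per gene, made by the authors with TopHat (alignment to cv. Morex) and HTSeq 0.6.0, DESeq2 being the tool of their own tests. No normalization had been applied, and the summary lines at the end of each count table were removed here.

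The analysis used edgeR 4.0.16 in R 4.3.3. Of 26073 identifiers, filterByExpr by group kept 20212. Libraries were scaled by TMM, and 1 fit with 4 group means was tested by the robust quasi-likelihood test (glmQLFit, glmQLFTest) for the difference of age effects, and p-values of all the genes were adjusted by Benjamini-Hochberg. A call required adjusted p up to 0.05 and a log2 difference of 1 or more in size. Standard errors are the estimate divided by the square root of the F statistic. CPM use TMM-scaled totals. With 36100002 to 51997655 counts per library, counting error is small beside the spread of replicates for all but the lowest genes. The test was checked on simulated counts. There it called 44% of the genes given a log2 difference of 1.5, 76% at 2, 75.5% at 3 and 94% at 4. It made 8 calls among genes given no difference. The simulated counts were drawn for each gene on its own, without shifts shared by many genes of a library. These shares and the 8 calls therefore need not hold for the real libraries.

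Genes were named by rule: the 8 largest differences in each direction with a group mean of at least 5 CPM, the 6 clearest reversals, called genes with a function, the cytokinin and primer genes and the transgene, and the called members of each of 28 lists of genes by function. Other genes are said to be chosen after their values were seen. Members and lists were chosen with earlier results of these data known. Alternatives were DESeq2 1.42.0, limma 3.58.1 voom with sample weights, other scaling and filters, glmTreat, a replicate block and each library left out. The quantitative PCR and imaging of the study were not used here.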

Additional observations from a re-analysis of the deposited data

Results flagged for a closer look

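The age effect differed between the genotypes by the test of that difference for 82 genes upward and 16 downward in AtCKX1, and for each called gene named above. Upward differences, as AtCKX1 minus GP on the log2 scale, were 4.98 (MLOC_72290), 4.28 (MLOC_29257), 3.89 (MLOC_44067), 3.33 (MLOC_56052), 3.20 (MLOC_70817), 3.11 (MLOC_81109), 3.00 (MLOC_36648), 2.94 (MLOC_56051), 5.36 (MLOC_41838), 3.11 (MLOC_58758) and 1.78 (MLOC_14118). Among genes chosen after their values were seen they were 2.54 (MLOC_7269), 1.67 (MLOC_19593), 1.74 (MLOC_40006), 2.74 (MLOC_13672), 1.86 (MLOC_5597), 1.99 (MLOC_82117), 1.67 (MLOC_70480), 1.44 (MLOC_15214), 2.23 (MLOC_17002), 2.08 (MLOC_70816), 1.18 (MLOC_54759), 2.54 (MLOC_49099) and 2.64 (MLOC_42878). Downward differences were -4.48 (MLOC_37446), -4.23 (MLOC_69385), -4.09 (MLOC_70279), -3.58 (MLOC_61919), -3.30 (MLOC_52247), -3.11 (MLOC_73481), -3.01 (MLOC_70331), -2.87 (MLOC_14101), -2.66 (MLOC_74149) and -2.58 (MLOC_61269), and among genes chosen later -2.73 (MLOC_36743), -2.41 (MLOC_13425), -2.29 (MLOC_52387), -1.51 (MLOC_65982), -1.15 (MLOC_73272) and -1.09 (MLOC_78933). Groups of 3 libraries were not screened for outlying values.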

How the results depend on the processing

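Scaling by RLE, upper quartiles or library totals, other filters and the fit without the robust option left both counts of calls within 1.5 times the 82 and 16. DESeq2 called 210 higher and 79 lower genes, among them all 98, with 130 of opposite sign, 41 stronger and 118 weaker in AtCKX1. limma voom with sample weights called 29 lower genes and 21 stronger ones. glmTreat against a 2-fold difference called 5 higher and 4 lower genes, 7 of opposite sign, 2 stronger and 0 weaker. The replicate block gave 37 higher and 10 lower genes, 22 of opposite sign, 8 stronger and 17 weaker, 46 of its 47 calls being among the 98. Of 18 same-numbered pairs of libraries, 2 had deviations from their group means correlated over 0.1 (range -0.339 to 0.363). With 3 libraries per group, these values cannot decide whether same-numbered libraries belong together. With each library left out in turn, higher genes ranged from 27 to 109, lower genes from 7 to 39, opposite signs from 15 to 59, stronger changes from 5 to 15 and weaker ones from 14 to 50, each lowest value coming without AtCKX1 1DAG replicate 3. Opposite signs also moved past 1.5 times without each GP 10DAG library (20, 28 and 26 for replicates 1, 2 and 3), AtCKX1 1DAG replicate 2 (27) and AtCKX1 10DAG replicate 3 (23), stronger changes without GP 10DAG replicate 1 (5) and AtCKX1 10DAG replicate 3 (8), and weaker ones without GP 10DAG replicates 1 (15), 2 (23) and 3 (19), AtCKX1 1DAG replicates 1 (17) and 2 (19) and AtCKX1 10DAG replicates 2 (18) and 3 (15). A fit with a library left out has fewer samples, and the cause of the other moves was not tested. All 98 genes kept their sign in each of the 24 alternative fits in which they were tested. These fits reuse the libraries on which the 98 were chosen for a large difference, which favours a kept sign. The fit without a limit on fold is the main fit itself. Of the 40 called genes named in the text, 31 were lost under glmTreat, 9 under the block, 6 under voom, 15 without AtCKX1 1DAG replicate 3 and 14 without GP 10DAG replicate 1. Of 22 uncalled genes given with an estimate, 12 changed sign in some fit, and MLOC_62596 was called by DESeq2. Depth limits the genes under about 1 CPM, such as MLOC_41838 and MLOC_69385.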
